A study of Mus musculus with 11 samples.

Results

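Among the 43346 genes of the deposited FPKM table, 31 named genes of the blood vessel lining were followed over 11 libraries of bead-selected liver cells. Of these 23 are pan-endothelial genes and 8 are genes of the liver sinusoid. They were picked by name, with earlier results of these data known. They fall into VEGF receptors (Kdr, Flt1, Flt4), the angiopoietin receptor system (Tek, Tie1, Ptprb) and junction and surface proteins (Pecam1, Cdh5, Esam, Eng, Emcn, Clec14a, Mmrn2, Robo4, Egfl7, Plvap, Ramp2). The rest are a Notch ligand and a nitric oxide synthase (Dll4, Nos3), transcription factors (Erg, Sox7, Sox17, Sox18) and sinusoidal genes (Stab1, Stab2, Lyve1, Clec4g, Fcgr2b, Gpr182, Oit3, Ehd3). Every mouse was a male wildtype C57BL/6 animal of 14 to 16 weeks. The 4 Control libraries are from mice that ate chow and the 4 DDC libraries from mice that ate the DDC diet for 10 days. The 3 R15 libraries are from mice that ate the DDC diet for 10 days and then chow for 15 days. The labels number the libraries as replicates with names that differ throughout but do not state that each is a separate animal, so that p-values measure the spread between these libraries. DDC is a compound that, fed to mice, injures bile ducts and serves as a model of cholestasis. Cells were bound by beads against EpCAM (CD326), an epithelial surface protein, and passed over a second column, so that endothelial cells were not what the selection sought. The design asks how bile duct epithelial cells (cholangiocytes) change under DDC and after its withdrawal. The endothelial genes were read in the same libraries.

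Endothelial cells line all blood vessels and hold together through junction proteins such as VE-cadherin (Cdh5). VEGF receptors and the angiopoietin receptor Tie2 (Tek) keep them alive and quiet, and ETS and SOX transcription factors such as Erg and Sox18 maintain their identity. In the liver the sinusoidal endothelium is perforated by fenestrae, lacks a firm basement membrane and clears macromolecules from the blood through scavenger receptors such as the stabilins, the Fc receptor Fcgr2b and the lectin Clec4g.

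The RefSeq promoter table of build GRCm38.p6 held 17 of the 31 genes, each with 250 bases before and 50 bases after the gene's start. ETS factors bind sequences around GGAA. The letters CAGGAA, searched on both strands, stood in the promoters of 12 of these 17 genes and in those of 33.4% of all 27025 genes of the table. The 12 were Tek, Tie1, Eng, Emcn, Clec14a, Robo4, Egfl7, Erg, Stab1, Stab2, Clec4g and Ehd3. A different ETS-type sequence, CCGGAAG, stood in 0 of the 17 and in 9.93% of all genes. The SOX-type sequence ACAAAG stood in 3 and in 21%, and the GATA-type sequence GATAAG in 2 and in 8.58%. These 4 sequences were chosen after looking at the promoters, and a match is no more than a match of letters. The 17 genes were chosen for what they have in common. Printed 5′ to 3′ are 5 promoters of genes on which the results turn, with CAGGAA or its reverse complement TTCCTG in capitals. Kdr (chr5:75978406-75978705, minus strand, no match) and Tie1 (chr4:118489800-118490099, minus strand, 1 match) are receptor genes that were lower in DDC. Stab2 (chr10:87007893-87008192, minus strand, 1 match) and Clec4g (chr8:3720602-3720901, minus strand, 1 match) are sinusoidal genes that were lower too. Stab1 (chr14:31168592-31168891, minus strand, 2 matches) is a sinusoidal gene that did not pass.
Kdr: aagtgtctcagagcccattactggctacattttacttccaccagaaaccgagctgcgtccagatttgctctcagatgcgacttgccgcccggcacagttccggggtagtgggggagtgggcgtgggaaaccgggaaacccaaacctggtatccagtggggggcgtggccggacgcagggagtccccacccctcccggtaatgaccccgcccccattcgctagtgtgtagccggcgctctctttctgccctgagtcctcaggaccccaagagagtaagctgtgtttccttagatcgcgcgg
Tie1: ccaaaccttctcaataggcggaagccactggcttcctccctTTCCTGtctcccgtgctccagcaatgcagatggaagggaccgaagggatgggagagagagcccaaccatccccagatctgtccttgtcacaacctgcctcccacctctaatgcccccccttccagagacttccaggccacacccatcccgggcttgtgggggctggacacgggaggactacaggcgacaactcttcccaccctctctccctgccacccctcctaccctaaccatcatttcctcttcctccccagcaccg
Stab2: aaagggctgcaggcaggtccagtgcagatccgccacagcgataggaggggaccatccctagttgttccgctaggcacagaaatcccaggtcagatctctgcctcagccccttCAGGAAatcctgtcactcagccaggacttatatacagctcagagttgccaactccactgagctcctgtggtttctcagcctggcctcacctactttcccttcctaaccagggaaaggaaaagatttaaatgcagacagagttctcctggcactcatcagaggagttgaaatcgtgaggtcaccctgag
Clec4g: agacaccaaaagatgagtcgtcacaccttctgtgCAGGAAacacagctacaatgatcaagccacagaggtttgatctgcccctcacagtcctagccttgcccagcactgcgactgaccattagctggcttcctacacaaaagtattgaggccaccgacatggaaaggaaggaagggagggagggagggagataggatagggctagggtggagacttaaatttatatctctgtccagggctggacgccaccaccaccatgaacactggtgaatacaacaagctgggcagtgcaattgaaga
Stab1: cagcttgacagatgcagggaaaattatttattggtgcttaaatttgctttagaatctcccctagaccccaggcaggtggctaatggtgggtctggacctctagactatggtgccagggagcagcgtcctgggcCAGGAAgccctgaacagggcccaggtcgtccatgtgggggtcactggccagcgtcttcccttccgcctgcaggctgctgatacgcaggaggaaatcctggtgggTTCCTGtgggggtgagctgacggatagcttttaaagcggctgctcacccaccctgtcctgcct

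Whole reads recovered from the FPKM values summed to between 49339240 and 72929107 per library. The lowest value of any of the 31 genes, 0.117 FPKM of Emcn in DDC 2, rested on 41 reads. The 8 cholangiocyte markers were present in every library, summing to 7980 to 11000 FPKM in Control, 9720 to 10800 in DDC and 8650 to 9680 in R15. By comparison the 31 endothelial genes summed to 257, 328, 1020 and 724 FPKM in Control 1 to 4, 156, 91.7, 126 and 159 in DDC 1 to 4, and 172, 505 and 418 in R15 1 to 3. Macrophage markers (12 genes) summed to 135 to 161 FPKM in Control and 1400 to 2540 in DDC, while in R15 1, 2 and 3 they reached 147, 794 and 177. Some libraries also stood apart by genes of organs next to the liver. In them 7 pancreatic acinar genes summed to 5500, 1450 and 639 FPKM in Control 1, 2 and 3, 712 in DDC 1 and 894 in R15 3 against at most 3.02 elsewhere. In Control 3, 4 gastric mucous genes summed to 8470 against 67.3 to 158 elsewhere. Both of these lists were put together after the values were seen.

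Most endothelial genes were lower on the DDC diet: the mean FPKM of Kdr was 10.1 times lower, that of Cdh5 5.36 times and that of the sinusoidal gene Ehd3 12.7 times. By limma on log2(FPKM + 1), with Benjamini-Hochberg adjustment over all 15264 genes tested and a threshold of 0.05, 26 of the 31 genes were lower and 0 were higher. Over all genes tested 31.9% were lower and 65.4% changed in either direction. In the same 26 genes every DDC library was below every Control library, which held for 29.8% of all genes tested. The median log2 fold change of the 31 genes was -1.90, beside 0.00 over all genes. Among the pan-endothelial genes 20 of 23 were lower, with a median of -1.83, and among the sinusoidal genes 6 of 8, with a median of -2.55. On log2(FPKM + 1) changes of low genes come out too small: the pan-endothelial gene Emcn, at -1.14, had a mean 7.52 times lower. The medians of these groups, here and below, therefore do not compare the size of their changes. Flt4, Ramp2, Sox17, Stab1 and Fcgr2b did not pass. All 31 genes had at least 1 FPKM in at least 3 libraries, the condition for being tested, but Flt1, Emcn, Dll4, Erg and Sox7 met it only through Control and R15 libraries. The calls of 24 of the 26 genes remained under every setting that was run for single genes and tested them, and those of Sox7 and Lyve1 did not. Leaving out Control 3 and Control 4 together was not among these settings, and it left 17 genes lower. No gene was higher at an unadjusted p under 0.05 either, nor by voom on the recovered reads, which called 26 lower. In bulk RNA, fewer endothelial cells among the selected cells and less RNA of these genes per cell cannot be told apart. The summed level of the hepatocyte markers moved in the same direction: the 7 genes, none at 0 in any library, summed to 3060 to 3730 FPKM in Control, 1120 to 1710 in DDC and 1860 to 2610 in R15. Alb made up most of that sum, with mean FPKM of 2770 (Control), 1030 (DDC) and 1730 (R15). Of the 7, 4 were lower and 1 was higher in DDC, beside 31.9% and 33.5% of all genes tested. The higher gene was Fgb, whose mean rose 5.39 times, and Apoa1 and Cps1 did not pass. After the return to chow, 3 of the 7 hepatocyte genes were higher than in DDC (33.4% of all genes tested). Their part in the endothelial result was not tested.

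**Figure D1:**
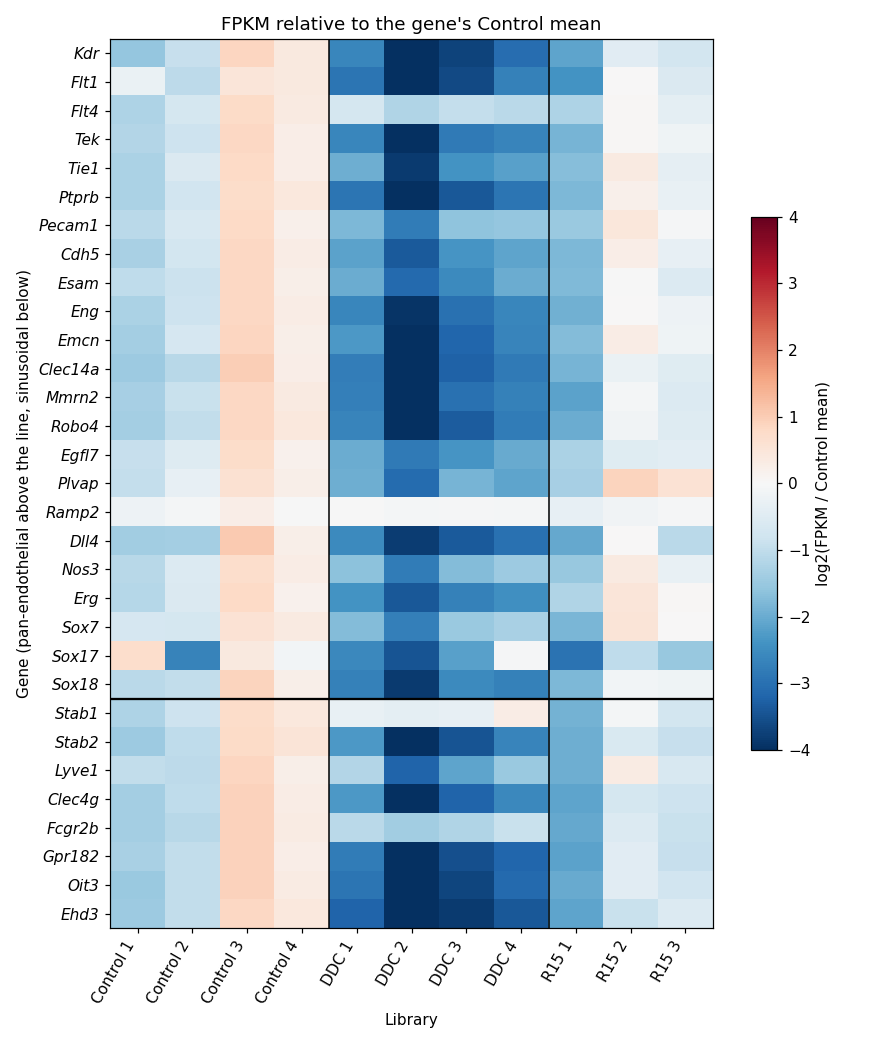
Each cell gives the FPKM of 1 gene (vertical axis) in 1 library (horizontal axis), as log2 of its ratio to the gene's Control mean, with colours ending at 4 and -4. Most genes are blue in all 4 DDC libraries and darkest in DDC 2, whereas Ramp2, Stab1, Fcgr2b and Flt4 are pale there. Within each diet the libraries differ together, Control 3 being the highest in 30 of 31 genes.

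**Figure D2:**
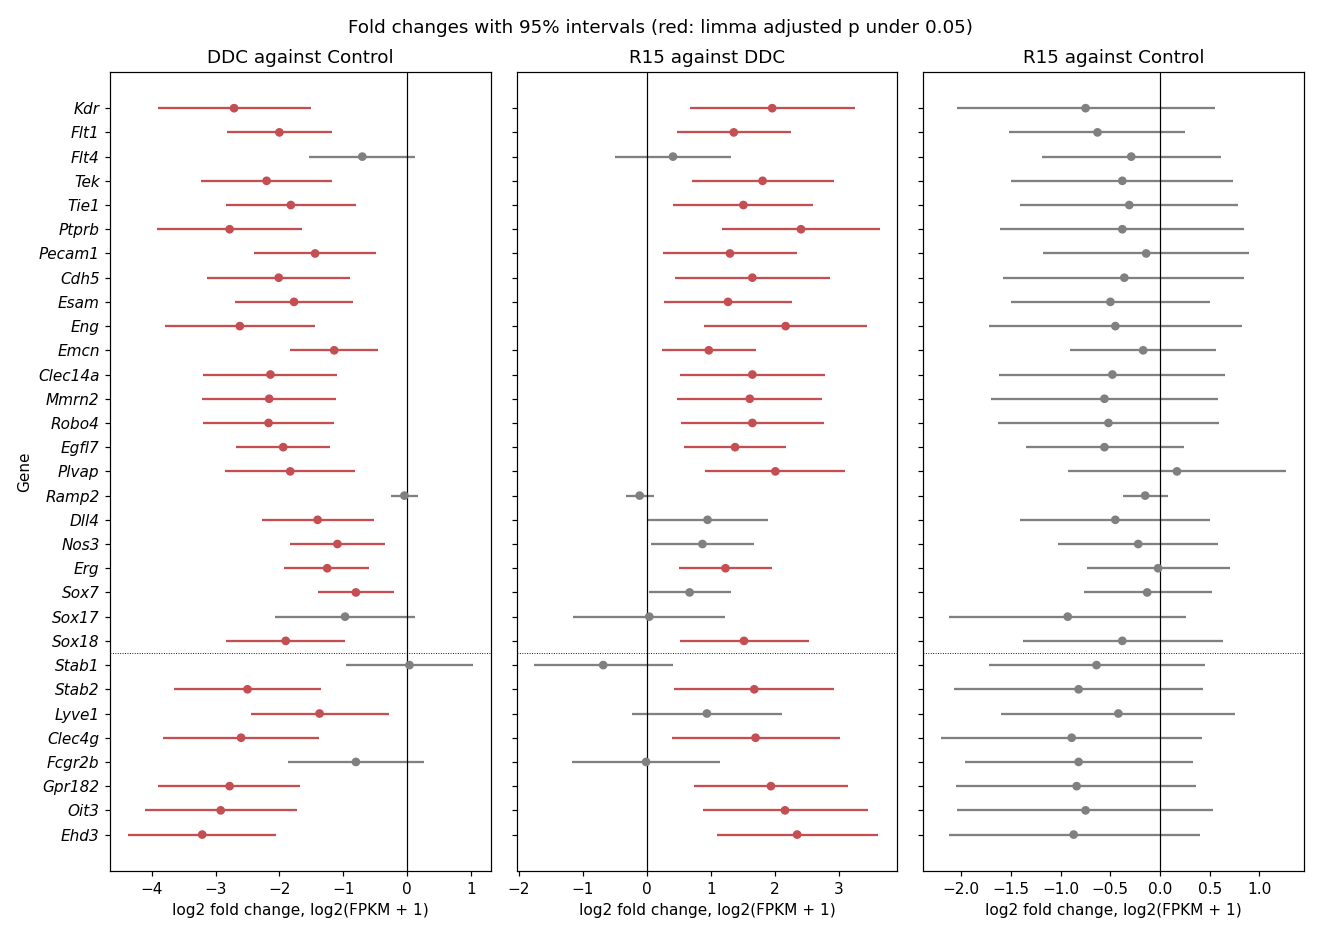
Points are limma log2 fold changes of log2(FPKM + 1) for the 31 genes (vertical axis) in 3 comparisons, with lines for their 95% intervals and red for an adjusted p under 0.05. In DDC against Control 26 genes are red and below 0. In R15 against DDC 22 are red and above 0, and in R15 against Control none is red.

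Kdr (VEGFR2), the main signalling receptor for VEGF-A, was measured at 8.37, 12.8, 44.4 and 31.9 FPKM in Control 1 to 4, 3.97, 0.875, 1.87 and 2.96 in DDC 1 to 4, and 5.66, 17.8 and 14.6 in R15 1 to 3. Flt1 (VEGFR1), which binds VEGF-A tightly and limits its supply, stood at 4.67, 2.7, 7.82 and 7.31 FPKM in Control 1 to 4, 0.747, 0.266, 0.462 and 0.866 in DDC 1 to 4, and 1.08, 5.63 and 3.76 in R15 1 to 3. In both genes all DDC libraries lay below all Control libraries and all R15 libraries above all DDC libraries. R15 1 was under the Control range while R15 2 and R15 3 were within it. The log2 fold change of Kdr was -2.71 ± 0.54 (SE, adjusted p = 0.0013) in DDC against Control and 1.96 ± 0.58 (adjusted p = 0.014) in R15 against DDC. For Flt1 these were -2.00 ± 0.37 (adjusted p = 8.2e-04) and 1.36 ± 0.40 (adjusted p = 0.013). Flt4 (VEGFR3), the receptor for VEGF-C and VEGF-D on lymphatic and sinusoidal endothelium, had 4.71, 6.84, 18.7 and 14.2 FPKM in Control 1 to 4, 6.85, 4.84, 5.71 and 5.21 in DDC 1 to 4, and 4.77, 11.4 and 8.54 in R15 1 to 3. Its 4 DDC values lay within the Control range, and its log2 fold change of -0.70 ± 0.37 did not pass (adjusted p = 0.12, 95% interval -1.54 to 0.13). Without Control 1, the lowest of the Control libraries, it passed at -1.01 (adjusted p = 0.024). Within a library the ratio of Flt4 to Kdr was 0.421 to 0.563 in Control, 1.73, 5.53, 3.06 and 1.76 in DDC 1 to 4 and 0.586 to 0.843 in R15, so that neither DDC nor R15 overlapped Control.

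Tek, which encodes the angiopoietin receptor Tie2, was at 5.32, 6.63, 21.1 and 14.3 FPKM in Control 1 to 4, 1.94, 0.638, 1.65 and 1.88 in DDC 1 to 4, and 3.23, 12.3 and 10.5 in R15 1 to 3. Its co-receptor gene Tie1 was at 3.96, 6.42, 16.5 and 11.4 FPKM in Control 1 to 4, 2.46, 0.68, 1.83 and 2.13 in DDC 1 to 4, and 2.93, 12.2 and 7.5 in R15 1 to 3. Ptprb, which encodes the endothelial phosphatase that dephosphorylates Tie2, was at 11.1, 16, 45.2 and 36.1 FPKM in Control 1 to 4, 3.59, 1.08, 2.56 and 3.6 in DDC 1 to 4, and 7.87, 31 and 22.3 in R15 1 to 3. None of the 3 genes had a DDC library within the Control or the R15 range, and DDC 2 was the lowest each time. Tek fell by 2.20 ± 0.46 on the log2 scale (adjusted p = 0.0019), Tie1 by 1.82 ± 0.46 (adjusted p = 0.0052) and Ptprb by 2.78 ± 0.51 (adjusted p = 7.9e-04). They were higher in R15 than in DDC by 1.81 ± 0.50, 1.51 ± 0.49 and 2.41 ± 0.55, with adjusted p of 0.0095, 0.022 and 0.0035.

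Cdh5, the gene of VE-cadherin, the adhesion protein that defines endothelial junctions, was at 9.01, 13.4, 39.5 and 27.2 FPKM in Control 1 to 4, 5.02, 2.15, 4.3 and 5.17 in DDC 1 to 4, and 6.37, 26.8 and 17.6 in R15 1 to 3. Pecam1 (CD31), an adhesion protein of endothelium that platelets and leukocytes also carry, was at 4.64, 6.29, 17 and 11.4 FPKM in Control 1 to 4, 2.82, 1.42, 3.2 and 3.38 in DDC 1 to 4, and 3.53, 13.6 and 9.62 in R15 1 to 3. Esam, a tight junction protein of endothelium and platelets, was at 5.13, 5.8, 18.6 and 12.4 FPKM in Control 1 to 4, 2.64, 1.21, 1.77 and 2.63 in DDC 1 to 4, and 3.06, 10.4 and 7.19 in R15 1 to 3. The groups Control and DDC did not overlap in these 3 genes, and in Cdh5 the nearest libraries, Control 1 and DDC 4, were at 9.01 and 5.17 FPKM. Pecam1 had the smallest change of the 3, a log2 fold change of -1.44 ± 0.43 (adjusted p = 0.013), against -2.01 ± 0.50 for Cdh5 (adjusted p = 0.0052) and -1.77 ± 0.42 for Esam (adjusted p = 0.0036). All 3 were higher in R15 than in DDC, by 1.30 ± 0.47, 1.65 ± 0.54 and 1.27 ± 0.45 (adjusted p = 0.032, 0.023 and 0.031).

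Eng (endoglin), a co-receptor for BMP9, was the highest pan-endothelial gene in Control, at 21.9, 29.5, 92.9 and 64.2 FPKM in Control 1 to 4, 8.5, 3.44, 6.6 and 8.45 in DDC 1 to 4, and 13.8, 52.7 and 45.6 in R15 1 to 3. Emcn, an endothelial sialomucin, was among the lowest, at 0.767, 1.23, 3.58 and 2.32 FPKM in Control 1 to 4, 0.398, 0.117, 0.217 and 0.318 in DDC 1 to 4, and 0.589, 2.42 and 1.77 in R15 1 to 3. Both were lower in every DDC library than in any other library, and Emcn stayed under 1 FPKM in all 4. Clec14a, a surface lectin of endothelium, had 3.48, 4.38, 18.7 and 11.3 FPKM in Control 1 to 4, 1.4, 0.391, 1.01 and 1.34 in DDC 1 to 4, and 2.58, 7.8 and 6.79 in R15 1 to 3. Mmrn2, the matrix protein that binds it, had 4.05, 5.45, 18.2 and 13.1 FPKM in Control 1 to 4, 1.53, 0.462, 1.3 and 1.57 in DDC 1 to 4, and 2.34, 9.73 and 6.93 in R15 1 to 3. In DDC the log2 fold changes were -2.16 ± 0.47 for Mmrn2 and -2.14 ± 0.47 for Clec14a, with no DDC library within the Control or R15 range (adjusted p = 0.0024 and 0.0025). Robo4, a receptor that stabilises vessels, was at 3.75, 4.81, 16.8 and 12.7 FPKM in Control 1 to 4, 1.52, 0.405, 0.952 and 1.37 in DDC 1 to 4, and 2.42, 8.7 and 6.62 in R15 1 to 3. Egfl7, a secreted endothelial protein whose gene hosts miR-126, was at 11.5, 15.2, 36.2 and 24.7 FPKM in Control 1 to 4, 5.49, 3.06, 4.26 and 5.41 in DDC 1 to 4, and 9.03, 15.6 and 16.3 in R15 1 to 3. Plvap, which forms the diaphragms of fenestrae and caveolae, was at 7.65, 11.8, 22.7 and 17.5 FPKM in Control 1 to 4, 3.83, 1.77, 4.07 and 3.45 in DDC 1 to 4, and 5.95, 27.7 and 22.5 in R15 1 to 3. No DDC library of these 3 genes reached a Control or R15 library, and Plvap was the one gene of the 31 with a mean above Control in R15 (18.7 ± 11.4 FPKM, SD, n = 3, against 14.9 ± 6.58, n = 4). That difference did not pass (log2 fold change 0.17 ± 0.49, adjusted p = 0.84) and was negative without Control 1, R15 2 or R15 3 (-0.09, -0.22 and -0.07). Log2 fold changes in DDC were -2.62 ± 0.53 for Eng, -1.14 ± 0.31 for Emcn, -2.17 ± 0.46 for Robo4, -1.94 ± 0.33 for Egfl7 and -1.83 ± 0.46 for Plvap, with adjusted p between 4.7e-04 (Egfl7) and 0.0075 (Emcn). The change of the low gene Emcn comes out too small on this scale, since mean FPKM was 7.52 times lower for Emcn and 7.72 times for Eng. All 7 of these surface and matrix genes were also higher in R15 than in DDC, from 0.97 ± 0.33 for Emcn (adjusted p = 0.026) to 2.17 ± 0.57 for Eng (adjusted p = 0.0075).

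Ramp2, which pairs with the receptor Calcrl to bind adrenomedullin, stood apart from the rest with 25.3, 27.8, 35.4 and 29 FPKM in Control 1 to 4, 29.4, 27.8, 28.3 and 27.8 in DDC 1 to 4, and 23.6, 26.9 and 28.6 in R15 1 to 3. All 11 libraries lay between 23.6 and 35.4 FPKM, and the log2 fold change in DDC was -0.04 ± 0.09 (adjusted p = 0.72, 95% interval -0.25 to 0.17). Its direction turned to 0.05 without Control 3. Its partner Calcrl, not among the 31 genes, was at 2.52, 4.17, 12.8 and 7.99 FPKM in Control 1 to 4, 1.58, 0.969, 1.36 and 1.69 in DDC 1 to 4 and 2.41, 10 and 7.35 in R15 1 to 3. In DDC it fell by 1.53 ± 0.45 (adjusted p = 0.012). The ratio of Ramp2 to Calcrl was therefore 2.77 to 10 in Control, 16.5 to 28.7 in DDC and 2.68 to 9.79 in R15, with DDC above both others. Ramp2 overlaps the gene model of Vps25 and 12 other genes of the 31 overlap some gene model, among them Stab1 (Nt5dc2) and Fcgr2b (Gm38204). The libraries were stranded, but no source used here gives the strand setting of the counting, so reads of overlapping genes cannot be told apart.

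Dll4, the Notch ligand of arterial and sprouting endothelium, was at 1.18, 1.22, 6.39 and 3.67 FPKM in Control 1 to 4, 0.537, 0.224, 0.305 and 0.392 in DDC 1 to 4, and 0.756, 3.17 and 1.46 in R15 1 to 3. Nos3, the endothelial nitric oxide synthase, was at 1.58, 2.36, 5.59 and 4.22 FPKM in Control 1 to 4, 1.1, 0.496, 1.03 and 1.26 in DDC 1 to 4, and 1.19, 4.42 and 2.79 in R15 1 to 3. Both were lower in every DDC library than in every Control library. Dll4 fell by 1.40 ± 0.40 (adjusted p = 0.0099) and Nos3 by 1.09 ± 0.33 (adjusted p = 0.015), while their mean FPKM was 8.54 and 3.53 times lower. Neither passed in the comparison of R15 with DDC, where the log2 fold changes were 0.95 ± 0.43 (adjusted p = 0.077) and 0.87 ± 0.36 (adjusted p = 0.058), although all 3 R15 values of Dll4 were above all DDC values.

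Erg, the ETS factor that keeps endothelial genes active, was at 1.14, 1.68, 4.42 and 2.86 FPKM in Control 1 to 4, 0.486, 0.24, 0.386 and 0.466 in DDC 1 to 4, and 1.1, 3.56 and 2.61 in R15 1 to 3. Of the SOX factors of vessels, Sox18 was at 3.52, 3.76, 13.7 and 8.82 FPKM in Control 1 to 4, 1.15, 0.523, 1.29 and 1.15 in DDC 1 to 4, and 2.13, 6.98 and 6.67 in R15 1 to 3. Sox7 was at 1.07, 1.04, 2.5 and 2.15 FPKM in Control 1 to 4, 0.507, 0.252, 0.608 and 0.689 in DDC 1 to 4, and 0.481, 2.43 and 1.7 in R15 1 to 3. These 3 fell together in DDC without overlap, Erg by 1.25 ± 0.30 (adjusted p = 0.004), Sox18 by 1.90 ± 0.42 (adjusted p = 0.0024) and Sox7 by 0.80 ± 0.27 (adjusted p = 0.023). Their mean FPKM was 6.4, 7.26 and 3.29 times lower. Sox7 lost its call without Control 3, without Control 4 and without DDC 2 (adjusted p = 0.063, 0.061 and 0.062). After the return to chow Erg was higher than in DDC by 1.23 ± 0.32 (adjusted p = 0.0074) and Sox18 by 1.52 ± 0.45 (adjusted p = 0.013), while Sox7, at 0.67 ± 0.29, did not pass (adjusted p = 0.065).

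Sox17, the remaining factor of that family and one that is also known from gallbladder and bile duct epithelium, did not follow the others. It was at 5.6, 0.544, 4.52 and 3.2 FPKM in Control 1 to 4, 0.577, 0.32, 0.764 and 3.39 in DDC 1 to 4, and 0.45, 1.72 and 1.22 in R15 1 to 3. Control 1 and DDC 4 were high and Control 2 low, so that all groups overlapped, and its log2 fold change of -0.97 ± 0.49 did not pass (adjusted p = 0.11). It passed without Control 2 (-1.42, adjusted p = 0.012) and without DDC 4 (-1.35, adjusted p = 0.028). The ratio of Sox17 to Sox18 was 1.59 in Control 1 and 2.95 in DDC 4 against 0.145 to 0.611 in the other 9 libraries. Control 1 was also the library with the highest pancreatic acinar sum, 5500 FPKM, but DDC 4 had a sum of 3.02, and the part of such tissue in the Sox17 values was not tested.

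The highest levels of the 31 in Control were those of sinusoidal genes, with Ehd3 (64.7 ± 43.9 FPKM, SD, n = 4) and Clec4g (60.2 ± 42.4) ahead of Eng (52.1 ± 32.8) and Oit3 (38.4 ± 27.2). Neighbours in that order do not differ beyond their spread. At the other end were Erg (2.53 ± 1.45), Emcn (1.97 ± 1.25) and Sox7 (1.69 ± 0.745), again within each other's spread. Ehd3, a membrane trafficking protein of sinusoidal and glomerular endothelium, was at 23.7, 32.7, 116 and 86.4 FPKM in Control 1 to 4, 7.08, 2.57, 4.54 and 6.19 in DDC 1 to 4, and 15.1, 35 and 43.9 in R15 1 to 3. Clec4g (LSECtin), a lectin that binds pathogens and T cells, was at 23.3, 29.8, 114 and 73.2 FPKM in Control 1 to 4, 12.2, 3.32, 6.53 and 10.1 in DDC 1 to 4, and 14, 36.8 and 33.9 in R15 1 to 3. Oit3, a secreted protein made by sinusoidal cells, was at 13.8, 19.2, 72.2 and 48.5 FPKM in Control 1 to 4, 5.1, 1.5, 3.02 and 4.43 in DDC 1 to 4, and 9.42, 27.8 and 22.5 in R15 1 to 3. These 3 separated the DDC libraries from all the others, and R15 1 was the lowest library outside DDC. Gpr182, an atypical receptor that scavenges chemokines, was at 11.9, 14.8, 55.1 and 34.9 FPKM in Control 1 to 4, 4.21, 1.33, 2.56 and 3.21 in DDC 1 to 4, and 6.6, 21.2 and 15.5 in R15 1 to 3. Stab2, the scavenger receptor for hyaluronan, was at 9.65, 13, 45.1 and 37.9 FPKM in Control 1 to 4, 5.32, 1.31, 2.43 and 4.24 in DDC 1 to 4, and 6.88, 17.2 and 14 in R15 1 to 3. Again no DDC value reached the Control or R15 values. The log2 fold changes in DDC were -3.21 ± 0.52 for Ehd3 (adjusted p = 3.6e-04), -2.60 ± 0.55 for Clec4g (adjusted p = 0.0019) and -2.92 ± 0.53 for Oit3 (adjusted p = 7.7e-04). They were -2.78 ± 0.50 for Gpr182 (adjusted p = 6.8e-04) and -2.50 ± 0.52 for Stab2 (adjusted p = 0.0017). From DDC to R15 these 5 genes rose by 2.35 ± 0.57, 1.70 ± 0.59, 2.16 ± 0.58, 1.94 ± 0.54 and 1.68 ± 0.56, with adjusted p between 0.0046 (Ehd3) and 0.028 (Clec4g).

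Lyve1, a hyaluronan receptor of sinusoidal and lymphatic endothelium and of some macrophages, was at 4.18, 4.04, 15.2 and 9.69 FPKM in Control 1 to 4, 3.66, 0.893, 1.91 and 2.95 in DDC 1 to 4, and 2.16, 10.3 and 5.35 in R15 1 to 3. Its Control and DDC libraries did not overlap, but Control 2 and DDC 1 were 4.04 and 3.66 FPKM. The log2 fold change was -1.37 ± 0.49 (adjusted p = 0.03), and the call was lost without Control 3, Control 4, DDC 2 or DDC 3 (adjusted p = 0.081, 0.073, 0.084 and 0.064). The R15 minus DDC difference of 0.94 ± 0.53 did not pass (adjusted p = 0.14), and without R15 1 it did (1.42, adjusted p = 0.046).

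Stab1 and Fcgr2b, known from sinusoidal endothelium and also from macrophages (Stab1) and B and myeloid cells (Fcgr2b), were not lower in every DDC library. Stab1, a scavenger receptor related to Stab2, was at 9.06, 12.1, 35.2 and 28.6 FPKM in Control 1 to 4, 17.5, 16.3, 17.1 and 26.3 in DDC 1 to 4, and 5.77, 19.9 and 12.7 in R15 1 to 3. The DDC libraries lay between the lower and the upper pair of Control libraries, and the log2 fold change was 0.04 ± 0.45 (adjusted p = 0.94, 95% interval -0.96 to 1.04). With single libraries left out it ran from -0.27 without Control 1 to 0.34 without Control 3. Fcgr2b, the inhibitory receptor for IgG, was at 12.2, 14.5, 59 and 38.9 FPKM in Control 1 to 4, 14.7, 11.8, 13.5 and 16.9 in DDC 1 to 4, and 7.52, 21.4 and 16.8 in R15 1 to 3. Its log2 fold change of -0.80 ± 0.48 did not pass (adjusted p = 0.16). Relative to Stab2 within a library, Stab1 was at 0.94, 0.928, 0.781 and 0.754 in Control 1 to 4, 3.28, 12.4, 7.03 and 6.2 in DDC 1 to 4 and 0.838, 1.16 and 0.907 in R15 1 to 3. The ratio of Fcgr2b to Stab2 ran from 1.03 to 1.31 in Control, was 2.77, 9.02, 5.55 and 3.99 in DDC 1 to 4 and ran from 1.09 to 1.24 in R15. For both ratios DDC was above Control and R15 without overlap, and Control and R15 overlapped.

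**Figure D3:**
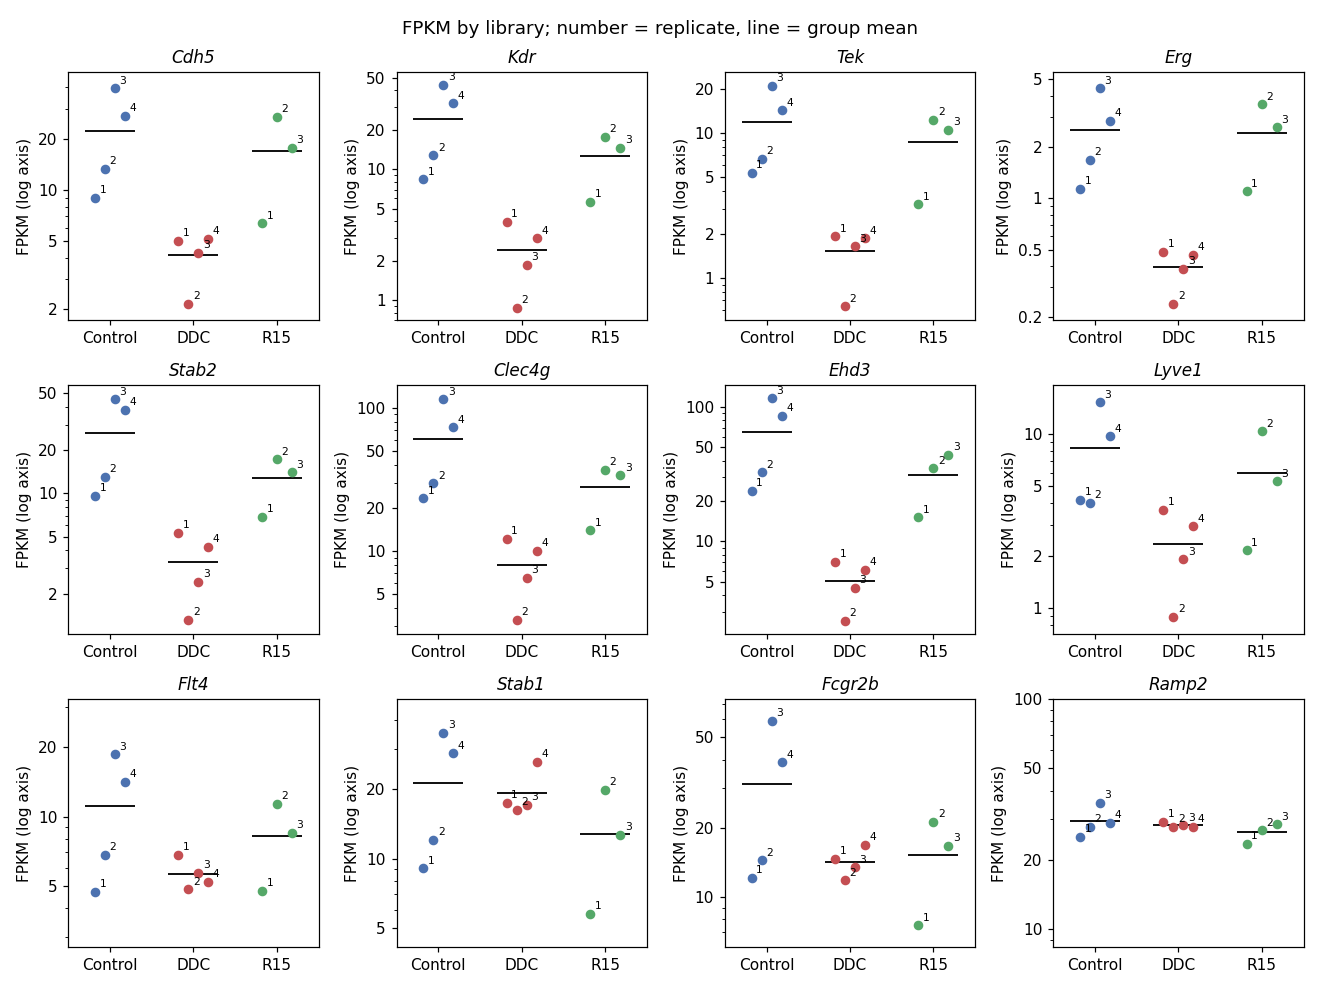
FPKM of 12 of the genes by library (log axes), with the replicate number beside each point and a line at each group mean (n = 4 Control, 4 DDC and 3 R15). In the 7 genes from Cdh5 to Ehd3 every DDC point is below every other point, Lyve1 separates DDC from Control only, and Flt4, Stab1, Fcgr2b and Ramp2 overlap between DDC and Control.

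Macrophage markers, like the ratios of Stab1 and Fcgr2b to Stab2, were higher in DDC than in Control. Within DDC the order of the libraries differed between markers and ratios, but the ratios also depend on Stab2, which was lowest in DDC 2 (1.31 FPKM). Of the 12 macrophage and Kupffer cell genes, 10 were higher in DDC than in Control by limma (33.5% of all genes tested). Clec4f (adjusted p = 0.2) and Timd4 (adjusted p = 0.65) did not pass. Marco, one of the 10, was under 1 FPKM in every Control library and was tested only through the DDC libraries and R15 2. From DDC to R15, 8 of the 12 fell (28.8% of all genes tested). C1qb, a complement gene of macrophages, was at 13.9 to 20.1 FPKM in Control, 249 to 473 in DDC and 15.6, 120 and 22.4 in R15 1 to 3. R15 2, with the highest macrophage sum of its group (794 FPKM), had Stab1 to Stab2 at 1.16 and Fcgr2b to Stab2 at 1.24, beside 0.838 and 0.907, and 1.09 and 1.2, in R15 1 and R15 3. DDC 2 had the highest ratios of all libraries, 12.4 and 9.02, at a macrophage sum of 1700 FPKM. DDC 4 had the highest sum, 2540 FPKM, at ratios of 6.2 and 3.99. Stab1 and Fcgr2b themselves were highest within DDC in that library, at 26.3 and 16.9 FPKM. B cell markers summed to 3.22 to 5.7 FPKM in Control, 2.14 to 3.21 in DDC and 3.21 to 8.14 in R15. The part of macrophages in the Stab1 and Fcgr2b values was not tested.

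**Figure D4:**
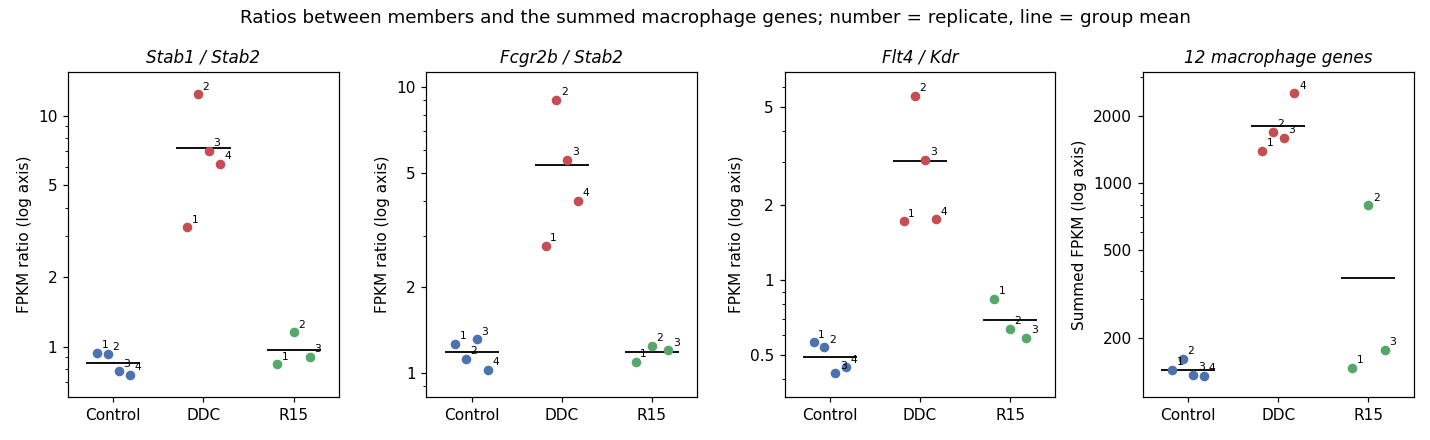
Within-library FPKM ratios of Stab1 to Stab2, Fcgr2b to Stab2 and Flt4 to Kdr, and the summed FPKM of 12 macrophage genes (log axes), by group with replicate numbers and lines at group means (n = 4, 4 and 3). All 4 DDC libraries are above all others in the 4 panels. R15 2 has a macrophage sum of 794 FPKM, and its ratios of Stab1 to Stab2 (1.16) and Fcgr2b to Stab2 (1.24) are the highest of R15. The Stab1 ratio is above all Control libraries and the Fcgr2b ratio is within the Control range.

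Within a group the endothelial genes varied together from library to library. Control 3 was the highest Control library for 30 of the 31 genes (Control 1 for Sox17), and Control 1 was the lowest for 27 and Control 2 for 4. Control 3 also had the highest gastric mucous sum, 8470 FPKM, and Control 1 the highest pancreatic acinar sum, 5500 FPKM. The part of such tissue in the endothelial values was not tested. DDC 2 was the lowest DDC library for all 31 genes, and R15 1 the lowest R15 library for all 31. The median over genes of the ratio to a gene's own Control mean was 0.42, 0.554, 1.77 and 1.22 in Control 1 to 4, 0.201, 0.0711, 0.153 and 0.168 in DDC 1 to 4 and 0.273, 0.989 and 0.717 in R15 1 to 3. The highest library of a group exceeded the lowest by a median of 4.15 times in Control, 2.75 times in DDC and 3.59 times in R15, against 1.25, 1.14 and 1.17 times over all genes tested. The 31 genes are therefore not independent readings of the diet, since the tests rest on 4, 4 and 3 libraries whose endothelial genes were high or low together. With Control 3 and Control 4, the 2 highest Control libraries, left out, 17 genes were lower in DDC instead of 26; this check was chosen after the values were seen.

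Because the genes moved together, each was also divided by Cdh5 of the same library, a description made after the values were seen and not a test. Over all 15263 genes the ratio to Cdh5 was above Control in every DDC library for 86.4% and below for 0.347%, since Cdh5 itself fell. Of the 22 other pan-endothelial genes, 9 were below without overlap (Kdr, Flt1, Tek, Ptprb, Eng, Emcn, Clec14a, Mmrn2 and Robo4) and 4 above (Flt4, Pecam1, Ramp2 and Nos3). Of the 8 sinusoidal genes, 3 were below (Gpr182, Oit3 and Ehd3) and 2 above (Stab1 and Fcgr2b). The genes below had thus fallen more than Cdh5 had. Tie1 kept its ratio: it was 0.439 ± 0.0293 (SD, n = 4) in Control, 0.412 ± 0.0715 (n = 4) in DDC and 0.446 ± 0.0185 (n = 3) in R15, overlapping throughout. Ptprb to Cdh5 was 1.24, 1.2, 1.14 and 1.33 in Control 1 to 4, 0.716, 0.505, 0.595 and 0.697 in DDC 1 to 4 and 1.24, 1.16 and 1.26 in R15 1 to 3, a drop in DDC and a return into the Control range. Ehd3 to Cdh5 was 2.64, 2.45, 2.93 and 3.18 in Control, 1.41, 1.2, 1.06 and 1.2 in DDC and 2.37, 1.31 and 2.49 in R15, where R15 2 was among the DDC values. Between DDC and R15, 9 pan-endothelial genes and Oit3 had ratios above DDC in every R15 library (0.256% of all genes), and 6 pan-endothelial and 3 sinusoidal genes had ratios below (63.5% of all genes). With Pecam1 in place of Cdh5 the sinusoidal genes below Control in DDC were 5 instead of 3 and the pan-endothelial genes above were 2 instead of 4. Without Control 2, and likewise without DDC 1, 5 sinusoidal genes were below.

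In R15 a few ratios were outside the Control range, of which those of Kdr, Mmrn2 and Gpr182 were below it in every DDC library and those of Clec4g, Plvap and Erg overlapped it in DDC. Clec4g to Cdh5 was 2.6 ± 0.279 (SD, n = 4) in Control and 2.2, 1.37 and 1.92 in R15 1 to 3, and Gpr182 to Cdh5 was 1.28 ± 0.122 in Control and 1.04, 0.791 and 0.881 in R15. Both were below every Control library, as were Kdr (1.05 ± 0.121 in Control, 0.793 ± 0.116 in R15) and Mmrn2 (0.45 ± 0.0309 and 0.374 ± 0.0164). Plvap (0.738 ± 0.152 and 1.08 ± 0.176) and Erg (0.117 ± 0.0105 and 0.151 ± 0.0203) were above. Over all genes the ratio was below Control in every R15 library for 0.170% and above for 1.47%. These counts, 2 sinusoidal genes below and 2 pan-endothelial genes in each direction, turned on the reference gene and on single libraries. With Pecam1 as the reference 7 sinusoidal and 6 pan-endothelial genes were below and 0 pan-endothelial genes above. With Tie1 as the reference 1 sinusoidal and 1 pan-endothelial gene were below. Leaving out R15 1 put 6 sinusoidal genes below, leaving out Control 2 put 5 sinusoidal and 5 pan-endothelial genes below, and leaving out R15 2 put 4 pan-endothelial genes above.

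**Figure D5:**
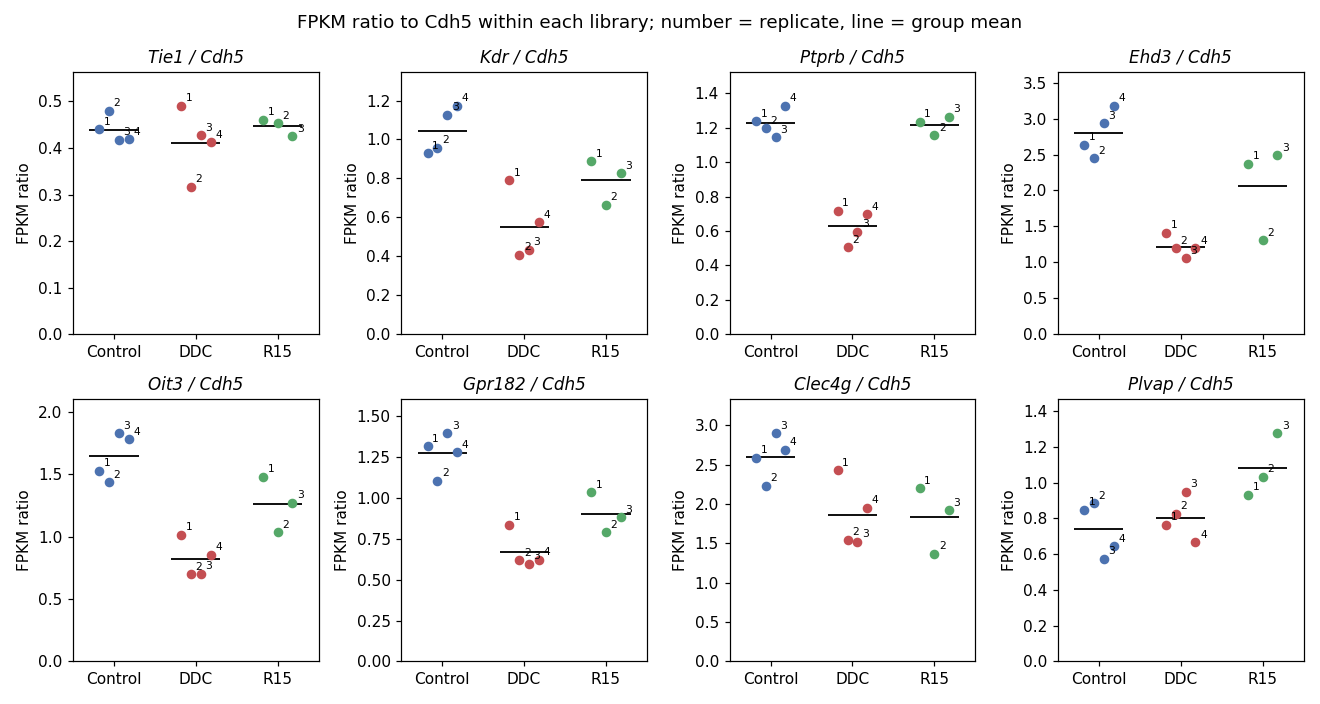
FPKM of 8 genes divided by that of Cdh5 in the same library (vertical axes from 0), by group with replicate numbers and lines at group means (n = 4 Control, 4 DDC and 3 R15). Tie1 overlaps in all groups, Kdr, Ptprb, Ehd3, Oit3 and Gpr182 are lower in all DDC libraries than in Control, and Plvap is higher in all R15 libraries than in Control.

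After 15 days back on chow most of the genes were higher again than at the end of DDC feeding. By limma 22 of the 31 genes were higher in R15 than in DDC and 0 were lower. Over all genes tested 33.4% were higher, 28.8% lower and 62.2% one or the other. In 23 genes, the 22 and Dll4, every R15 library was above every DDC library (35.6% of all genes tested). The median log2 fold change was 1.51, beside 0.04 over all genes, with 17 of 23 pan-endothelial genes (median 1.38) and 5 of 8 sinusoidal genes (median 1.69) higher. Flt4, Ramp2, Dll4, Nos3, Sox7, Sox17, Stab1, Lyve1 and Fcgr2b did not pass, and Stab1 and Fcgr2b had log2 fold changes of -0.68 ± 0.49 (adjusted p = 0.25) and -0.01 ± 0.51 (adjusted p = 0.99). This comparison shares its DDC libraries with the one before, so a low DDC library enters both. Voom called 19 higher and 0 lower. The count depended on single libraries, being 9 without R15 2, 11 without R15 3, 14 without DDC 2 and 26 without R15 1. The calls of 9 genes, Tek, Ptprb, Eng, Egfl7, Plvap, Erg, Gpr182, Oit3 and Ehd3, remained under every setting that was run for single genes.

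R15 against Control, which reuses the same Control and R15 libraries, gave no called gene: 0 of 31 were higher and 0 lower by limma, against 6.87% and 2.72% of all genes tested (9.58% in either direction). No member had an unadjusted p under 0.05, voom called 0, and the R15 and Control libraries overlapped in all 31 genes (15.0% of all genes tested had R15 above without overlap and 6.30% below). The median log2 fold change was -0.45, beside 0.05 over all genes, -0.38 for the pan-endothelial and -0.82 for the sinusoidal genes. The intervals were wide: for Clec4g the difference was -0.89 ± 0.59 (95% interval -2.21 to 0.42), for Ehd3 -0.87 ± 0.57 (-2.13 to 0.40), for Cdh5 -0.36 ± 0.54 (-1.58 to 0.85) and for Erg -0.02 ± 0.32 (-0.74 to 0.70). A remaining decrease to well under the Control level, or a full return to it, both lay within these intervals for the sinusoidal genes. No test compared the sinusoidal with the pan-endothelial genes.

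Further genes of endothelium were counted from lists. Of 20 further pan-endothelial genes 19 were tested, and in DDC against Control 11 were lower and 5 higher, with a median log2 fold change of -1.12. Over all genes tested 31.9% were lower and 33.5% higher. The smallest p belonged to Cd34, a sialomucin of endothelium and of progenitor cells, which rose (0.368 to 0.474 FPKM in Control, 2.02 to 2.82 in DDC, log2 fold change 1.27 ± 0.16, adjusted p = 5.6e-05). Cd34 was under 1 FPKM in every Control library and was tested only through DDC and R15 libraries. Of the 11 lower genes, Myct1 and Arhgef15 were under 1 FPKM in every DDC library and were tested only through Control and R15 libraries. Adgrf5, an adhesion receptor of endothelium, was lower at 0.759 to 2.73 FPKM in DDC against 5.95 to 25.8 in Control (-2.33 ± 0.47, adjusted p = 0.0014). Aqp1, a water channel of both endothelium and cholangiocytes, was lower at 10.1 to 47.6 against 76.7 to 286 FPKM (-2.48 ± 0.53, adjusted p = 0.0021). The other genes that were higher were Acvrl1, Fli1, Ets1 and Lmo2, named here after their values were seen, of which Fli1, Ets1 and Lmo2 are also active in blood cells. In R15 against DDC 9 were higher and 3 lower (33.4% and 28.8% of all genes tested), and in R15 against Control 0 passed by limma, with 1 at an unadjusted p under 0.05.

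Of 10 further genes of sinusoidal and central vein endothelium 9 were tested, and all 9 were lower in DDC, with a median of -1.67, beside 31.9% of all genes tested. The smallest p belonged to Dnase1l3, a secreted DNase (17.4 to 87 FPKM in Control, 2.18 to 5.69 in DDC, -2.99 ± 0.50, adjusted p = 4.2e-04). Next came F8, coagulation factor VIII (4.28 to 17.2 and 0.68 to 1.58, -2.18 ± 0.39, adjusted p = 7.0e-04), and Wnt2, a Wnt ligand of sinusoidal cells (2.89 to 11.2 and 0.431 to 0.985, -1.97 ± 0.38, adjusted p = 1.0e-03). Wnt2 and Wnt9b, another Wnt gene of this list, were under 1 FPKM in every DDC library and were tested only through Control and R15 libraries. Of the 9, 7 were higher in R15 than in DDC (33.4% of all genes tested), and in R15 against Control 0 passed by limma, 0 also at an unadjusted p under 0.05. Of the lymphatic markers Ccl21a was at most 0.342 FPKM and at 0 in DDC 2 and DDC 3, and Mmrn1 was at most 0.387. Prox1 and Pdpn, which are not restricted to that cell type, were at 14.3 to 61.8 and 23.5 to 47.4 FPKM.

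Ligands of the receptors were measured in the same libraries. Of 10 ligand genes 5 were tested, and 4 were lower in DDC than in Control (Vegfa, Vegfb, Vegfc and Angpt1), beside 31.9% of all genes tested. Vegfa, the ligand of Kdr and Flt1, was at 148, 179, 134 and 181 FPKM in Control 1 to 4, 34.2, 34.6, 34.4 and 36.2 in DDC 1 to 4 and 161, 128 and 144 in R15 1 to 3 (log2 fold change in DDC -2.16 ± 0.10, adjusted p = 2.1e-07). Angpt1, the activating ligand of Tek, was at 25.7, 31.4, 26.4 and 30.7 FPKM in Control, 8.24, 8.16, 6.29 and 6.84 in DDC and 28, 21.5 and 27 in R15 (-1.82 ± 0.11, adjusted p = 6.4e-07). Vegfc, the ligand of Flt4, was at 1.18 to 1.92 FPKM in Control, 0.321 to 0.377 in DDC and 1.69 to 3.1 in R15 (-0.98 ± 0.14, adjusted p = 1.4e-04), and it reached 1 FPKM, the level needed to be tested, only in Control and R15. Its mean FPKM was 4.87 times lower in DDC than in Control. In Vegfa, Angpt1 and Vegfc no DDC library reached a Control or R15 library, while R15 and Control overlapped. Adm, the ligand of the Ramp2 and Calcrl receptor, was at 0.278 to 2.55 FPKM in Control and overlapped in every comparison. Between DDC and R15, 3 of the 5 rose (33.4% of all genes tested). Which cells these ligand transcripts came from was not tested.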

How the data were processed

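Mouse liver cells selected with EpCAM beads were sequenced in 4 Control, 4 DDC and 3 R15 libraries. Per the labels' protocols the libraries were made from mRNA and keep the strand. Their values were deposited by the authors as FPKM, that is fragments per kilobase of gene and per unit of library depth, in 1 table. The genome build was mm10, per the submitters' processing notes. The aligner, the counter and its strand setting were not given in the sources used here. Dividing by the smallest value gave whole reads for 100% of nonzero values within 0.001, and about 1 FPKM rested on a median of 122.5 reads. The quantity tested was log2(FPKM + 1), on which changes of low genes come out too small. The 15264 genes that reached FPKM 1 in 3 or more libraries were fitted in limma 3.58.1 under R 4.3.3, with 1 model of the 3 groups and trended empirical Bayes variances. P is 2-sided and Benjamini-Hochberg adjusted over these genes, and 0.05 is the threshold. The test was tried on simulated data first.

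All 31 genes were named, with values in every library, and of the further lists the 3 tested genes with the smallest p in DDC against Control. The 31 genes and the lists were chosen with earlier results of these data known. Settings varied were the pseudocount, filter and scaling, array weights, robust variances, the groups in the model, a replicate term, voom on the recovered reads and each library left out. Ratios to Cdh5 and the removal of Control 3 and Control 4 were added after the values were seen. Promoters are from RefSeq, matched by symbol.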

Additional observations from a re-analysis of the deposited data

Results flagged for a closer look

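Within a group of 4 libraries, a library was marked when its gap to the nearest other took up more of the group's range than Dixon's 95% limit allows, which chance alone passes in about 5% of groups. Of 62 groups of 4 checked over the 31 genes, 2 were marked. Sox18 was at 0.523 FPKM in DDC 2 against at least 1.15 in the other DDC libraries, a gap of 0.848 of the range, and DDC 2 was the lowest DDC library for all 31 genes. Stab1 was at 26.3 FPKM in DDC 4 against 16.3 to 17.5 in the other DDC libraries, a gap of 0.854 of the range. DDC 4 also had the highest macrophage sum, 2540 FPKM, and the part of macrophages in this value was not tested.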

How the results depend on the processing

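The 26 genes lower in DDC against Control were 21 to 28 under the settings that kept every library and 24 to 27 with single libraries left out, but 17 with Control 3 and Control 4 left out. The 22 genes higher in R15 against DDC were 17 (pseudocount 5) to 25 (array weights) and, with single libraries left out, 9 to 26. In R15 against Control no setting called any of the 31, while the count over all genes, 1463, was 317 with only the groups compared, 498 with Control 3 and Control 4 left out and 660 to 2184 with single libraries left out. Replicate numbers did not pair the libraries: in 10 pairs of libraries with the same number the correlation of deviations ran from -0.28 to 0.3, with 3 over 0.1, and 1 of 11 libraries correlated best with its own number. With a replicate block 25 genes were lower in DDC and 24 higher in R15 against DDC, the count over all genes in R15 against Control was 693, Lyve1 no longer passed in DDC (adjusted p = 0.052), and the sign of Fcgr2b in R15 against DDC (0.13) and of Erg in R15 against Control (0.03) turned. Other signs turned only in genes that had not passed. With pseudocount 5 R15 against DDC gave -0.01 for Sox17 and 0.01 for Fcgr2b. Rescaling to one total gave -0.04 for Stab1 in DDC, and 0.01 for Ramp2 and 0.10 for Fcgr2b in R15 against DDC. Array weights gave -0.14 for Stab1 in DDC and 0.01 for Fcgr2b in R15 against DDC, and with them Flt4 (-0.79, adjusted p = 0.035) and Fcgr2b (-0.93, adjusted p = 0.046) passed in DDC. With single libraries left out the log2 fold change in DDC ran over -0.27 to 0.34 for Stab1 and -0.11 to 0.05 for Ramp2, and in R15 against DDC over -0.16 to 0.42 for Sox17 and -0.30 to 0.40 for Fcgr2b. In R15 against Control it ran over Plvap -0.22 to 0.81, Flt4 -0.59 to 0.01, Pecam1 -0.50 to 0.35, Emcn -0.41 to 0.14, Erg -0.27 to 0.29, Sox7 -0.39 to 0.22, Tek -0.70 to 0.13, Tie1 -0.71 to 0.16, Ptprb -0.76 to 0.16, Cdh5 -0.78 to 0.18, Eng -0.79 to 0.14, Nos3 -0.53 to 0.13, Sox18 -0.62 to 0.07 and Lyve1 -0.87 to 0.05. The joint removal of Control 3 and Control 4 was not run for single genes. Of the single-gene values under all other alternatives, 2089 kept sign and side of the threshold, 57 lost and 25 gained a call and 43 turned sign. The causes of these changes were not tested. The lowest value of the 31 genes rests on 41 reads, and each group has 3 or 4 libraries.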

Other observations

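In some genes of the further lists R15 2 and R15 3 were above every Control library. Of these, 3 were chosen after their values were seen and are described here. Others were Acvrl1 (7.3 and 5.86 FPKM in R15 2 and R15 3, at most 5.44 in Control) and Cd34 (1.86 and 1.08, at most 0.474). Vwf, the clotting protein stored by endothelium of larger vessels, was at 2.15, 3.56, 3.27 and 3.1 FPKM in Control 1 to 4, 0.848, 0.852, 1.55 and 1.54 in DDC 1 to 4 and 2.23, 11.5 and 7.42 in R15 1 to 3. Rspo3, a central vein amplifier of Wnt signals, was at 2.78, 4.93, 7.2 and 5.04 FPKM in Control, 0.63, 0.451, 1.38 and 0.927 in DDC and 2.61, 13.6 and 13.5 in R15. Wnt9b, a Wnt ligand of the same endothelium, was at 1.37, 2.79, 3.25 and 2.45 FPKM in Control, 0.455, 0.259, 0.632 and 0.472 in DDC and 0.989, 3.86 and 4.41 in R15. In all 3 genes R15 1 was within or under the Control range. By limma all 3 were higher in R15 than in DDC, Vwf by 1.69 ± 0.37 (adjusted p = 0.003), Rspo3 by 2.33 ± 0.46 (adjusted p = 0.0015) and Wnt9b by 1.37 ± 0.32 (adjusted p = 0.004). Wnt9b was under 1 FPKM in every DDC library and was tested only through Control and R15 libraries. None passed against Control, where the log2 fold changes were 0.81 ± 0.37, 0.66 ± 0.46 and 0.14 ± 0.32 (adjusted p = 0.19, 0.36 and 0.79).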
